A study of Homo sapiens with 4 samples.

Results

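The nuclear-encoded subunits of oxidative phosphorylation were followed in MDA-MB-231 cells given vehicle (DMSO) or RB-BC for 24 h. MDA-MB-231 is a mesenchymal line from a triple-negative breast cancer, and RB-BC is derived from ribociclib, a drug that inhibits CDK4 and CDK6. Members were the rows of the count table whose identifier maps to a protein-coding symbol beginning NDUFA, NDUFB, NDUFC, NDUFS, NDUFV, UQCR, COX4I, COX5, COX6, COX7, COX8 or ATP5, or to SDHA, SDHB, SDHC, SDHD or CYC1, without the NDUFAF assembly factors. This rule took 91 of the 20263 genes in the table. Of these, 38 were assigned to complex I, 4 to complex II, 10 to complex III, 19 to complex IV and 20 to complex V. NDUFA4 and NDUFA4L2 were placed in complex IV, where the NDUFA4 protein resides. COX7A2L was kept there by its name, although it is known as a factor that joins complexes III and IV into supercomplexes. The read-through genes NDUFC2-KCTD14 and ATP5MF-PTCD1 stayed with complexes I and V by their symbols.

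Oxidative phosphorylation takes place at the mitochondrial inner membrane. Complexes I and II pass electrons from NADH and succinate to ubiquinone, complex III passes them on to cytochrome c, and complex IV delivers them to oxygen. Complexes I, III and IV pump protons while doing so, and complex V uses the returning protons to make ATP. Mitochondrial DNA encodes a small set of subunits, and all the others, including the whole of complex II, are encoded in the nucleus and imported. Their transcription is known to draw on nuclear respiratory factor 1 (NRF1), the ETS-family factor GABPA, YY1, ESRRA and coactivators of the PGC-1 family.

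Each group held 2 libraries, DMSO 1 and 2 and RB-BC 1 and 2, of a single line in medium with serum. The sources used here give no dose, and the treatment protocol names Rib_CA, with no statement on whether that is RB-BC. Totals ran from 34774542 to 42786422 counts, and the members took between 0.431% (DMSO 2) and 0.612% (RB-BC 1) of them. DMSO 2 stood apart by its mitochondrially encoded genes, which took 21.7% of its counts against 8.68% to 10.3% in the other libraries. VIM, MSN, AXL, CD44, CAV1 and ZEB1, markers of this mesenchymal line, were all present. The epithelial CDH1 had at most 2 counts in any library and ESR1 at most 23. EPCAM, also epithelial, was present in every library at 5.49 to 9.34 TMM-scaled counts per 1e6 (CPM), and GATA3 at 7.89 to 21.4 CPM.

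RNA for 7 of the 83 members that passed the low-count filter rose with RB-BC and for 0 fell. They were NDUFA13, NDUFA7 and NDUFB7 of complex I, COX5B and COX7A2L of complex IV, and ATP5MC2 and ATP5ME of complex V, with rises between 1.64-fold and 2.01-fold. A gene was called higher or lower where edgeR's quasi-likelihood test over all 13744 tested genes gave an adjusted p below 0.05. The members' share called higher was 8.43%, next to 8.58% of all tested genes (1179), and none of the members was called lower, next to 7.53% of all tested genes (1035). In either direction 16.1% of all tested genes were called. The share of members called higher was thus close to that of all tested genes. Before adjustment, edgeR gave a p below 0.05 for 22 members with a higher value (26.5%, against 18.2% of all tested genes) and for 2 with a lower value (2.41%, against 17%). DESeq2 called 13 of 87 members higher (14.9%, against 9.79% of all genes it fitted) and 0 lower (against 9.37%). With library totals alone in place of TMM scaling, 790 genes of the whole table were called higher and 415 lower, and 5 members were called higher (6.02%, against 5.75% of all tested genes).

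Most members sat above zero without passing the test. The log2 fold change was positive in 59 of 83 tested members (71.1%, against 49.9% of all tested genes), with a median of 0.20 against -0.00 over all tested genes. Both RB-BC libraries were above both DMSO libraries in 37 members (44.6%, against 33.1% of all tested genes). Both were below in 11 (13.3%, against 32.1%). In the remaining 35 members the groups overlapped. In bulk RNA, fewer cells with a transcript and less of it per cell cannot be told apart.

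**Figure D1:**
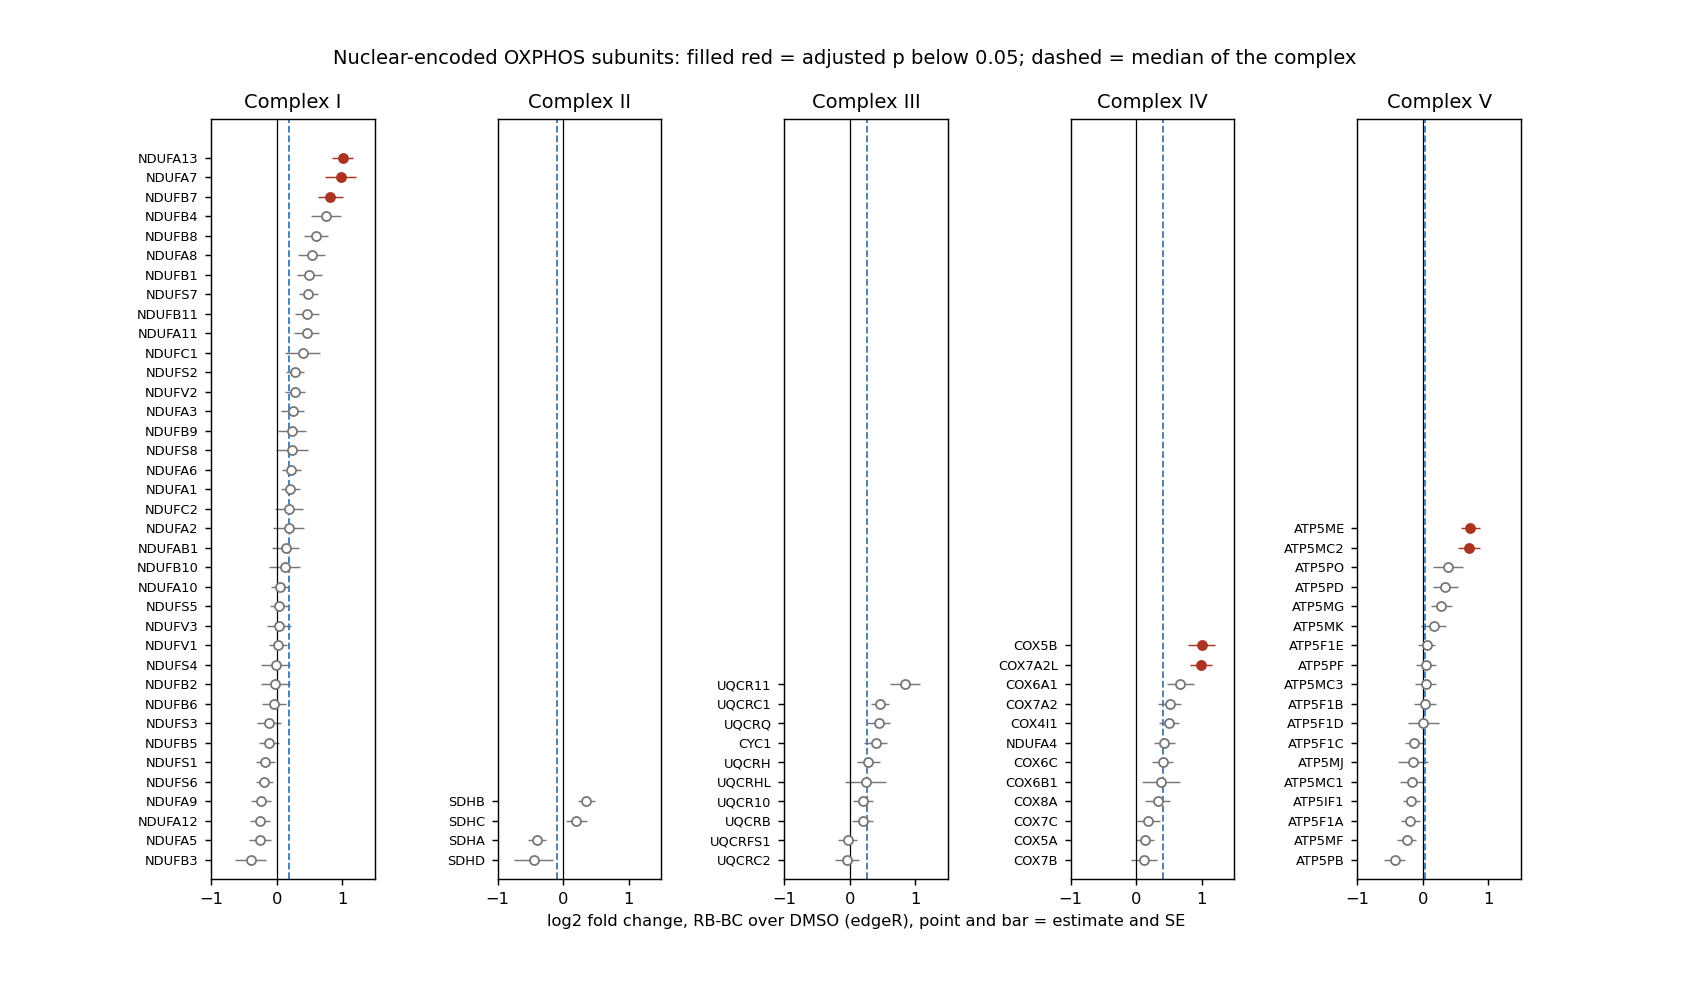
Log2 fold change (RB-BC over DMSO, edgeR) of the tested subunits, 1 panel per complex, with bars of 1 SE. Filled red points are the 7 subunits called higher, the dashed line is the complex's median, and the 2 read-through genes are not drawn. All 12 points of complex IV lie above zero, whereas those of complexes I, II, III and V fall on both sides.

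The calls changed when a library was left out, where the spread comes from the other group alone. The log2 fold changes of the 7 called genes stayed positive in each such fit. Leaving out RB-BC 1 gave 0.91 (NDUFA13), 0.76 (NDUFA7), 0.62 (NDUFB7), 0.72 (COX5B), 0.84 (COX7A2L), 0.53 (ATP5MC2) and 0.73 (ATP5ME). Leaving out RB-BC 2 gave 1.10, 1.165, 1.00, 1.23, 1.12, 0.87 and 0.72 in the same order. Without RB-BC 1 no member was called (edgeR, 0 higher and 0 lower, with 7 higher and 0 lower at an unadjusted p below 0.05), when 1.07% of all tested genes were called higher. Without RB-BC 2 only COX5B was called (2.24% of all genes). Without DMSO 1 there were 14 calls higher (11.5% of all genes), among them 5 of the 7, and NDUFA7 and NDUFB7 were no longer called. Without DMSO 2 there were 7 higher (13.5% of all genes), with COX6A1 called in place of ATP5MC2, and 3 lower, namely ATP5PB, NDUFB3 and SDHD. Those 3 were 3.57% of the members, under the 12.5% of all genes called lower in the same fit.

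Complex I, the NADH dehydrogenase, had all 38 members tested, 3 of them called higher (7.89%, against 8.58% of all tested genes). Its 3 called genes all encode accessory subunits, the ring of proteins around the catalytic core. Accessory subunits make up 30 of the 38 members, and 10% of them were called. NDUFA13, also known as GRIM-19, stood at 47.8 and 56.7 CPM in the DMSO libraries and at 112 and 97.8 CPM in the RB-BC libraries. The RB-BC libraries were thus well above the DMSO libraries, and the log2 fold change was 1.01 ± 0.16 (SE, n = 2 and 2, edgeR adjusted p = 0.0166). NDUFA7 was at 26.3 and 38.3 CPM with DMSO and at 72.4 and 54.6 CPM with RB-BC. Its groups did not overlap but the libraries within each were farther apart, and the log2 fold change was 0.97 ± 0.24 (edgeR adjusted p = 0.0437). NDUFB7, a subunit of the membrane arm, was at 39.1 and 46.3 CPM with DMSO and at 85.2 and 65.4 CPM with RB-BC. RB-BC 1 was the highest library for all 3 genes, and the log2 fold change of NDUFB7 was 0.82 ± 0.19 (edgeR adjusted p = 0.0369).

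None of the 7 core subunits of complex I encoded in the nucleus was called (edgeR, 1 of 7 at an unadjusted p below 0.05, DESeq2 0). They form the path of electrons from NADH to ubiquinone. Over all tested genes 8.58% were called higher, so 0 calls among 7 genes do not set the core subunits apart. Their median log2 fold change was 0.23 and that of the 30 accessory subunits 0.19. NDUFS7, which binds the last iron-sulfur cluster before ubiquinone, was at 29.1 and 30.4 CPM with DMSO and 44.0 and 39.1 CPM with RB-BC. These groups did not overlap, and the log2 fold change was 0.48 ± 0.15 (edgeR adjusted p = 0.0743). NDUFV1, the NADH-binding subunit, showed almost the same level throughout, at 39.9 and 40.2 CPM against 41.8 and 39.1 CPM. NDUFS1, an iron-sulfur subunit of the core, was at 99.8 and 101 CPM with DMSO and lower with RB-BC, at 83.1 and 94.5 CPM, with a log2 fold change of -0.18 ± 0.14 that did not pass (edgeR adjusted p = 0.415). Among accessory subunits not called, values ran from 0.75 for NDUFB4 (edgeR adjusted p = 0.0779) to -0.39 for NDUFB3 (edgeR adjusted p = 0.283). The read-through NDUFC2-KCTD14 had the lowest value of the complex, -1.87 ± 1.41, from 9, 69, 0 and 27 counts, and these counts give it no direction.

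Complex II, succinate dehydrogenase, is the only complex with no mitochondrially encoded subunit and also serves the TCA cycle. None of its 4 genes was called (edgeR, 2 at an unadjusted p below 0.05, DESeq2 0), and they split evenly by sign. SDHA, the flavoprotein, was at 169 and 175 CPM with DMSO and 125 and 136 CPM with RB-BC, a log2 fold change of -0.40 ± 0.14 (edgeR adjusted p = 0.102). SDHB, the iron-sulfur subunit, went the other way, from 67.6 and 66.5 CPM to 84.9 and 86.2 CPM, with 0.35 ± 0.13 (edgeR adjusted p = 0.118). Neither gene's groups overlapped. Of the membrane anchors, SDHC was at 137 and 111 CPM against 139 and 145 CPM (0.20 ± 0.16). SDHD was at 67.6 CPM in DMSO 1 but at 36.8, 34.2 and 42.3 CPM in the other 3 libraries, and its log2 fold change was -0.45 ± 0.30. Without DMSO 1 it was 0.05, so its sign rests on that library.

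Complex III, the cytochrome bc1 complex, had all 10 members tested and 0 called (edgeR, 3 at an unadjusted p below 0.05, DESeq2 2). Of the 10, 8 were positive (80%, against 49.9% of all tested genes), with a median of 0.26. UQCR11, a small subunit, came nearest to the threshold. It was at 48.5 and 35.1 CPM with DMSO and 86.1 and 63.3 CPM with RB-BC, with a log2 fold change of 0.84 ± 0.23 (edgeR adjusted p = 0.0567). All 6 small subunits were positive, and 5 of them (83.3%, against 33.1% of all tested genes) had both RB-BC libraries above both DMSO libraries. These 5 include UQCRHL, which was low, at 51, 43, 74 and 62 counts or 1.28 to 1.71 CPM (edgeR adjusted p = 0.616). They also include UQCRQ, at 41.7 and 34.5 CPM against 57.1 and 46.2 CPM (0.44 ± 0.18, edgeR adjusted p = 0.140). The paired core proteins UQCRC1 and UQCRC2 parted. UQCRC1 was at 109 and 106 CPM with DMSO and 158 and 140 CPM with RB-BC (0.46 ± 0.14, edgeR adjusted p = 0.0767). UQCRC2 was at 79.3 and 58.1 CPM against 65.5 and 67.5 CPM, with overlapping groups (-0.05 ± 0.18). Of the subunits that carry electrons, CYC1, the cytochrome c1 protein, was at 194 and 218 CPM against 300.4 and 240.3 CPM (0.39 ± 0.17, edgeR adjusted p = 0.162). The Rieske protein UQCRFS1 was at -0.03 ± 0.15 with overlapping groups.

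Complex IV, cytochrome c oxidase, had 12 of 19 members tested, all of them positive (against 49.9% of all tested genes), with a median of 0.42. In 8 of the 12 (66.7%, against 33.1% of all tested genes) both RB-BC libraries lay above both DMSO libraries. COX5B, a matrix-side subunit that binds zinc, was at 43.3 and 41.1 CPM with DMSO and 99.2 and 69.2 CPM with RB-BC. The DMSO libraries were close to each other and the RB-BC libraries were not, and the log2 fold change was 1.00 ± 0.20 (edgeR adjusted p = 0.0279). COX7A2L was at 40.5 and 48.5 CPM against 97.0 and 79.4 CPM, a clear gap between the groups (0.99 ± 0.17, edgeR adjusted p = 0.0200). Values that did not pass were 0.67 ± 0.20 for COX6A1 (edgeR adjusted p = 0.0715) and 0.50 ± 0.15 for COX4I1 (edgeR adjusted p = 0.0768), a subunit needed early in assembly. Next came 0.51 ± 0.17 for COX7A2 (edgeR adjusted p = 0.0939) and 0.42 ± 0.16 for NDUFA4 (edgeR adjusted p = 0.120). COX6B1 was the least even, at 52.0 and 85.3 CPM with DMSO and 106 and 73.2 CPM with RB-BC, so its groups overlapped (0.38 ± 0.29). COX8A was at 80.4 and 68.1 CPM against 107 and 79.3 CPM (0.33 ± 0.19). COX7B had the smallest value, 0.12 ± 0.20, at 49.96 and 36.4 CPM against 42.8 and 51.0 CPM, and its sign changed when DMSO 2 or RB-BC 2 was left out.

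The 7 members of complex IV that were not tested are paralogues of these subunits, most of them known as tissue-restricted forms and NDUFA4L2 as a hypoxia-induced one. COX4I2, COX6A2, COX7B2 and NDUFA4L2 had 0 counts in all 4 libraries. COX7A1, the heart and muscle form, had 0, 1, 5 and 0 counts in DMSO 1, DMSO 2, RB-BC 1 and RB-BC 2, COX6B2, a testis form, had 8, 0, 14 and 4, and COX8C had 0, 0, 2 and 0. A count of 0 allows up to 3 counts, which is at most 0.0895 CPM in these libraries. In each pair only the common form (COX4I1, COX6A1, COX6B1, COX7A2, COX7B, COX8A and NDUFA4) passed the low-count filter, with counts in both groups. The eighth member left out by the filter was ATP5MGL of complex V, with 0, 0, 2 and 0 counts.

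Complex V, the ATP synthase, had 19 of 20 members tested, with a median of 0.03. Of these 2 were called higher (10.5%, against 8.58% of all tested genes), both from its membrane sector. ATP5ME, subunit e, which takes part in pairing the enzyme into dimers, was the most even of the called genes. It was at 21.8 and 21.7 CPM with DMSO and 35.8 and 36.1 CPM with RB-BC, with a log2 fold change of 0.72 ± 0.14 (edgeR adjusted p = 0.0256). ATP5MC1, ATP5MC2 and ATP5MC3 encode the same mature ring subunit c from separate loci. Of these ATP5MC2 rose, from 107 and 98.8 CPM to 188 and 148 CPM (0.71 ± 0.17, edgeR adjusted p = 0.0417). ATP5MC1 was at 48.0 and 42.99 CPM against 46.4 and 34.8 CPM (-0.16 ± 0.19), and ATP5MC3 at 94.9 and 77.0 CPM against 92.2 and 85.4 CPM (0.05 ± 0.16), both with overlapping groups. Summed over the 3 genes, subunit c RNA was 250 and 219 CPM with DMSO and 327 and 269 CPM with RB-BC.

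The catalytic head of complex V showed little difference, with a median of 0.01 over 5 genes and no call (edgeR, 0 also at an unadjusted p below 0.05, and DESeq2 0). ATP5F1B, the catalytic beta subunit, was at 301 and 244 CPM with DMSO and 281 and 277 CPM with RB-BC, inside the DMSO range. The stalk subunits were spread. ATP5PB, subunit b of the stator, was at 219 and 182 CPM against 148 and 149 CPM (-0.43 ± 0.15, edgeR adjusted p = 0.108), the lowest value of the complex. ATP5PD was at 57.3 and 40.9 CPM against 60.3 and 64.1 CPM (0.34 ± 0.19, edgeR adjusted p = 0.256). The inhibitor ATP5IF1, which binds the head when the proton gradient fails, was at 65.2 and 68.3 CPM against 59.3 and 59.0 CPM. Its groups did not overlap and its value did not pass (-0.17 ± 0.13, edgeR adjusted p = 0.387).

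**Figure D2:**
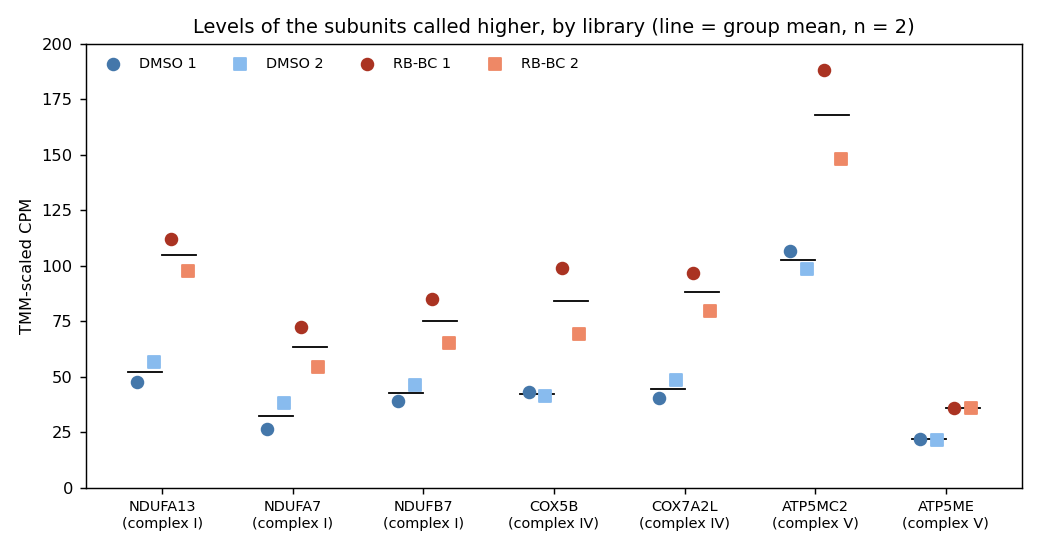
TMM-scaled CPM of the 7 subunits called higher in each of the 4 libraries, with a line at each group's mean (n = 2). RB-BC 1 is the highest library for 6 of the 7 genes, whereas ATP5ME is level between RB-BC 1 and 2.

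Set side by side, the median log2 fold changes were 0.19 for complex I, -0.10 for complex II, 0.26 for complex III, 0.42 for complex IV and 0.03 for complex V. The summed CPM of complex IV was 800 and 826 in the DMSO libraries and 1229 and 1063 in the RB-BC libraries (813 ± 18.3 against 1146 ± 117, mean ± SD, n = 2 each, a ratio of 1.41). For complex III the sums were 859 and 779 against 1067 and 962, a ratio of 1.24. Both sets of sums separated the groups, and so did those of complex I, at 1439 and 1408 against 1749 and 1611 (ratio 1.18). Complex V did not, at 1643 and 1453 against 1613 and 1557 (ratio 1.02), nor did complex II, at 442 and 389 against 383 and 410 (ratio 0.955). With 2 libraries against 2 the smallest two-sided p of an exact permutation test is 0.333. The sums were not otherwise tested, since the members were chosen with results of these data known, and the differences between complexes are given as values only.

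The libraries within a group also differed. Over all members, the median deviation of a gene from its own mean over the 4 libraries on the log2 scale was -0.01 and -0.20 for DMSO 1 and 2, and 0.13 and 0.04 for RB-BC 1 and 2. DMSO 1 and RB-BC 2 thus lay nearer to each other than the DMSO libraries did. In complex IV the order was DMSO 2 (-0.28), DMSO 1 (-0.14), RB-BC 2 (0.18) and RB-BC 1 (0.28), with a wider gap between the groups than within them. In complex II DMSO 1 was the highest library (0.11) and DMSO 2 the lowest (-0.21). Left out in turn, libraries moved the median of complex II between -0.16 and 0.21 and that of complex I between 0.06 and 0.24, while that of complex IV stayed between 0.35 and 0.53.

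**Figure D3:**
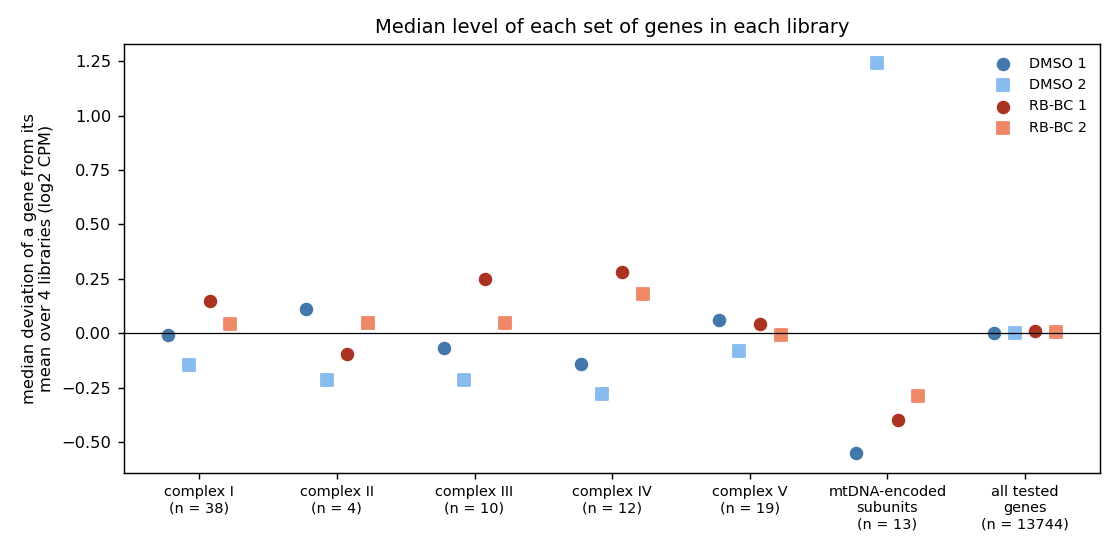
Median deviation of the tested genes of each complex from their own mean over the 4 libraries (log2 CPM), 1 point per library, with the 13 mitochondrially encoded subunits and all tested genes beside them. Complexes I, III and IV have both RB-BC libraries above both DMSO libraries, and DMSO 2 is far above the others for the mitochondrially encoded subunits (1.24).

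The promoters of the 7 called genes are shown from 120 bases before to 30 bases after the RefSeq start (GRCh38.p14). Each is printed 5′ to 3′ on the gene's strand. The genes were chosen by their calls in these same data, and a shared control was not tested. Capitals mark matches on either strand to the ETS core CCGGAAG, the YY1 motif AANATGGCG and the SP-family GC box GGGCGG. The NDUFA13 window is chr19:19516105-19516254 (plus strand), that of NDUFA7 chr19:8321346-8321495 (minus strand) and that of NDUFB7 chr19:14572037-14572186 (minus strand). Those of COX5B and COX7A2L are chr2:97645942-97646091 (plus strand) and chr2:42361188-42361337 (minus strand). Those of ATP5MC2 and ATP5ME are chr12:53676054-53676203 (minus strand) and chr4:674247-674396 (minus strand).
NDUFA13: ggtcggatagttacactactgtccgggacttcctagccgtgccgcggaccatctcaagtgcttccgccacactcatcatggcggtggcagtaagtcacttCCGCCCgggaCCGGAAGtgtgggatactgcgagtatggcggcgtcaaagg
NDUFA7: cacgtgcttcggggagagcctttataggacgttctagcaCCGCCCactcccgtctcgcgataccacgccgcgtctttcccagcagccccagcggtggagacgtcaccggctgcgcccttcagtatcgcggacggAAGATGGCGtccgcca
NDUFB7: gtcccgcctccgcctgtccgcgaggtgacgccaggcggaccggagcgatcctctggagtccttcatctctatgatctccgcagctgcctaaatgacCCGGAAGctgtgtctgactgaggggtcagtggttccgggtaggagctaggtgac
COX5B: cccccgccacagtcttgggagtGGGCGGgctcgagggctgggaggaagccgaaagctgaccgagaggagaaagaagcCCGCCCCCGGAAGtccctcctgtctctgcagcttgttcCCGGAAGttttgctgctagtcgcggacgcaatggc
COX7A2L: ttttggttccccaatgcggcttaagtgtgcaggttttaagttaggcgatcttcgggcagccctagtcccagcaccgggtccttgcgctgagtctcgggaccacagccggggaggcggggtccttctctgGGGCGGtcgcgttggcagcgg
ATP5MC2: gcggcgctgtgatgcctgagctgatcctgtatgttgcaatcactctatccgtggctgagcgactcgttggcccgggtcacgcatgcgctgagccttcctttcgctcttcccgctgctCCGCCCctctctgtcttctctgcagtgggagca
ATP5ME: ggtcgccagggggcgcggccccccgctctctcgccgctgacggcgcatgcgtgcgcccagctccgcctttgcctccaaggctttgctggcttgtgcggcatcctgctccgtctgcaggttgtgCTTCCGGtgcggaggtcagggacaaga

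The printed windows hold an ETS core in NDUFA13, NDUFB7, COX5B (2 matches) and ATP5ME, a YY1 motif in NDUFA7, and a GC box in NDUFA13, NDUFA7, COX5B, COX7A2L and ATP5MC2. Shares were counted over the full 300-base promoters (250 before to 50 after the start), found for 71 of the 91 members, 67 of them tested, and for 10961 tested genes. The NRF1 motif (GCGC, any base, then TGCGC) was in 23.9% of the members' promoters and 11.3% of all promoters, the YY1 motif in 23.9% and 6.61%, the ETS core in 29.9% and 18.7%, and the GC box in 62.7% and 69.4%. The NRF1 motif was in 1 of the 7 called promoters and 15 of the 60 uncalled, the YY1 motif also in 1 and 15, the ETS core in 4 and 16, and the GC box in 6 and 36. By complex, the NRF1 motif was in 4 of 7 promoters of complex III and 0 of 10 of complex IV, and the ETS core in 5 of 10 of complex IV and 5 of 33 of complex I. A match is a description of the letters only.

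Several properties moved with the fold change. Over the 83 tested members, the log2 fold change correlated with the GC content of the principal transcript at Pearson's r = 0.22 and Spearman's rho = 0.31, and over 13728 tested genes at 0.19 and 0.23. These are correlations across genes of the same 4 libraries, which are not independent replicates. All tested genes went from a median of -0.19 below 40% GC to 0.32 at 65% GC and above. The difference between DMSO 2 and DMSO 1 also ran with GC over all genes, from -0.24 to 0.12 between the same bins, and that between RB-BC 1 and RB-BC 2 from -0.04 to 0.19. With the trend on GC removed from each library, 8 members were called higher (9.18% of all tested genes) and 0 lower (9.14%). They were ATP5ME, COX5B, COX7A2L, NDUFA13, NDUFA7 and NDUFB7 together with COX6C and NDUFA4, and ATP5MC2 was no longer called (0.59, edgeR adjusted p = 0.0548).

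**Figure D4:**
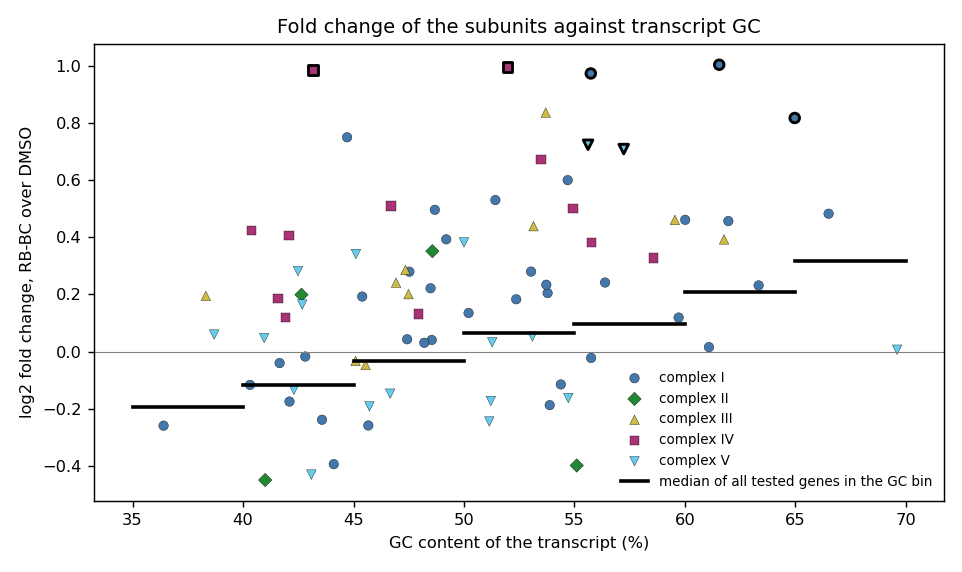
Log2 fold change of the tested subunits against the GC content (%) of their principal transcript, by complex. Heavy outlines mark the 7 called genes, black bars the median of all tested genes in each GC bin, which goes from -0.19 to 0.32, and the 2 read-through genes are not drawn.

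All 3 called genes of complex I lie on chromosome 19, whose tested genes had a median transcript GC of 59.7% against 49.3% over all tested genes. Of the 12 members on it, 10 were tested, 3 were called higher (30%), and the median log2 fold change was 0.47. Over all 1024 tested genes of chromosome 19, 13.7% were called higher with a median of 0.13. The 73 tested members on other chromosomes had 4 calls (5.48%, against 8.58% of all tested genes) and a median of 0.18. The part of GC content or chromosome in the rises was not tested beyond the fit above.

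Some called genes share exons with neighbours, and the sources used here give no strand setting for the counting. NDUFA13 overlaps YJEFN3 on its own strand, which had a log2 fold change of -0.98 (edgeR adjusted p = 0.0560), opposite in sign, and ENSG00000258674, which was called lower (-1.30, edgeR adjusted p = 0.0178). NDUFA7 overlaps ENSG00000167774 on its own strand (-1.76, edgeR adjusted p = 0.289). Reads in exons shared on the same strand are uncertain on any strand setting. NDUFA7 also overlaps RPS28, a ribosomal protein gene on the other strand, at 138 and 170 CPM with DMSO and 292 and 224 CPM with RB-BC (0.75, edgeR adjusted p = 0.0518). ATP5ME overlaps MYL5 on the other strand (0.65, edgeR adjusted p = 0.0971). Reads that NDUFA7 and ATP5ME share with these opposite-strand partners cannot be told apart if counting ignored strand. NDUFB7, COX5B and COX7A2L overlap no other gene of the table and ATP5MC2 only a non-coding one, while COX5B has 6 named pseudogenes and ATP5MC2 has 3, so that reads of near-identical copies are uncertain for both. The 48 tested members with no exon in another gene of the table had 4 calls (8.33%) and a median of 0.19. The 35 with one had 3 calls (8.57%) and a median of 0.20. Both shares were close to the 8.58% of all tested genes called higher.

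The 13 subunits encoded in mitochondrial DNA, the partners of these proteins in complexes I, III, IV and V, were all tested and none was called by edgeR, nor had any an unadjusted p below 0.05. Their summed level was 80150 CPM for DMSO 1, 244340 CPM for DMSO 2, 99834 CPM for RB-BC 1 and 100061 CPM for RB-BC 2. DMSO 2 lay far above the rest and DMSO 1 below both RB-BC libraries. The groups overlapped for 12 of the 13 genes, and the median of -0.99 over all 13 therefore gives no direction. MT-CO2 and MT-CO3, the complex IV subunits next to the catalytic one, were at 0.07 and -0.08, whereas the catalytic MT-CO1 was at -0.80. DMSO 2 was also the lowest library for the nuclear-encoded members as a whole. With mitochondrially encoded genes removed before scaling, the same 7 members were called.

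Assembly factors, which are not part of the finished complexes, had few calls. Of 59 tested factors 4 were called higher (6.78%, against 8.58% of all tested genes) and 2 lower (3.39%, against 7.53%), and their median log2 fold change was 0.03 (members 0.20, not tested against each other). SDHAF4, a chaperone for SDHA, was at 5.21 and 5.85 CPM with DMSO and 16.0 and 12.7 CPM with RB-BC (1.37 ± 0.21, edgeR adjusted p = 0.0150), whereas SDHA itself was not called. NDUFAF3, which acts early in complex I assembly, rose by 0.99 ± 0.18 on the log2 scale (edgeR adjusted p = 0.0218). Among 26 factors for complex IV, SURF1, which serves heme a insertion, rose by 0.67 and COX19, a copper-pathway protein, by 0.77, while COX20, a chaperone of the mitochondrially encoded COX2, fell by 0.98 (edgeR adjusted p = 0.0446, 0.0281 and 0.0150). BCS1L, which inserts the Rieske protein into complex III, fell by 0.71 (edgeR adjusted p = 0.0384).

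Over all 146 genes of the lists around the pathway, assembly factors and mitochondrially encoded subunits included, 11 were called higher (7.53%, against 8.58% of all tested genes) and 8 lower (5.48%, against 7.53%). Both shares lie below those of all tested genes. Of the genes called higher, SDHAF4 had a transcript GC of 43.6% and the others 53.5% (COX19) to 66.3% (POLRMT). Of those called lower, BCS1L had 54.3% and the others 38.4% (TFAM) to 46.6% (SLC25A4). The part of GC in these calls was not tested beyond the fit with the GC trend removed. The changes that follow are on the log2 scale. Of 17 electron carriers and ubiquinone enzymes (5.88% called higher and 5.88% lower), ETFB, the beta subunit of the electron transfer flavoprotein, rose by 0.78 (edgeR adjusted p = 0.0245) and PDSS1, which builds the ubiquinone tail, fell by 1.21 (edgeR adjusted p = 0.0128). CYCS, cytochrome c itself, was at 160 and 84.8 CPM with DMSO and 70.7 and 71.0 CPM with RB-BC, a value of -0.79 ± 0.30 that did not pass (edgeR adjusted p = 0.118). A list of 17 genes held TCA cycle enzymes together with PDHA1, PDHB, DLAT and PDHX of the pyruvate dehydrogenase complex. Of these 17, 2 were called (11.8% lower, against 7.53% of all tested genes). They were FH and IDH3A, which fell by 0.67 and 0.55 (edgeR adjusted p = 0.0310 and 0.0468). Among 12 exchange genes (8.33% called higher and 16.7% lower) the ADP/ATP carriers parted, with SLC25A6 rising by 0.86 and SLC25A4 falling by 0.83 (edgeR adjusted p = 0.0448 and 0.0223), and the outer-membrane channel VDAC3 fell by 0.78 (edgeR adjusted p = 0.0367). Of 13 cardiolipin and cristae genes (23.1% called higher), MICOS13 (0.79), CHCHD6 (0.78) and TAFAZZIN (0.71) rose (edgeR adjusted p = 0.0230, 0.0328 and 0.0468). The 4 complex V assembly factors had no call and ran from -0.38 to 0.08.

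Regulators of mitochondrial biogenesis gave 2 calls higher and 1 lower among 15 (13.3% and 6.67%, against 8.58% and 7.53% of all tested genes). Transcript GC was 64.1% and 66.3% for the 2 called higher, ESRRA and POLRMT, and 38.4% for TFAM, the 1 called lower. ESRRA, an orphan nuclear receptor that acts on OXPHOS promoters, was at 22.4 and 16.9 CPM with DMSO and 50.3 and 35.3 CPM with RB-BC (1.12 ± 0.24, edgeR adjusted p = 0.0308). POLRMT, the mitochondrial RNA polymerase, rose by 0.58 ± 0.14 (edgeR adjusted p = 0.0437). TFAM, which packages mitochondrial DNA and starts its transcription, was at 99.1 and 79.2 CPM with DMSO and 45.4 and 51.6 CPM with RB-BC, and fell by 0.88 ± 0.17 (edgeR adjusted p = 0.0255). The coactivator PPARGC1A was at 4.65 and 10.2 CPM against 15.5 and 18.5 CPM (1.20 ± 0.37, edgeR adjusted p = 0.0766). Its relatives PPARGC1B and PPRC1 were at -0.51 and -0.71 (edgeR adjusted p = 0.342 and 0.0702). YY1 was at 234 and 225 CPM with DMSO and 173 and 189 CPM with RB-BC, with no overlap, and did not pass (-0.34 ± 0.14, edgeR adjusted p = 0.146). NRF1 was at -0.23 ± 0.15 and GABPA at -0.09 ± 0.20, and neither passed (edgeR adjusted p = 0.341 and 0.787). MYC was at 7.52 CPM in DMSO 1 but 28.6 CPM in DMSO 2, against 35.4 and 34.0 CPM with RB-BC (0.94 ± 0.55, edgeR adjusted p = 0.274).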

How the data were processed

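RNA from 4 libraries was analysed, with groups and replicate numbers from the sample titles. The authors deposited 1 table of raw counts per Ensembl gene, whole numbers with no normalization that the values show. For the aligner, counting program and strand setting nothing is given in the sources used here. The submitters' processing notes name GRCm38 and mm10, both mouse builds, whereas the identifiers are human, so positions printed are those of RefSeq promoters only. For 20148 of 20263 rows a table pairing Ensembl identifiers with names gave the symbol, for 76 rows GENCODE 29 did, and 39 rows had none. The rule matched 92 rows, of which 1 pseudogene was left out. The members, lists and tests were chosen with earlier results of these data known, and a list's count is given beside that of all tested genes.

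Counts were tested with edgeR 4.0.16 in R 4.3.3 (filterByExpr, minimum count 10 and minimum total 15, TMM, glmQLFit and glmQLFTest, two-sided, Benjamini-Hochberg over all tested genes, threshold 0.05, 2 residual degrees of freedom), after the same steps were tested on simulated data. The simulated test recovered 6.12% of 1.5-fold, 38% of 2-fold, 82% of 4-fold and 98% of 8-fold changes. It also made 17 false calls among 13580 genes. The simulation changed far fewer genes than the 2214 called in the data, so the recovery in this fit can differ. Recovery was incomplete, so a gene that was not called is not shown to be unchanged. SE is the log2 fold change divided by the square root of F, and CPM is TMM-scaled. Nothing states that libraries came from separate cultures, so p-values measure the spread between libraries, which may be technical. Alternatives were RLE factors, library totals, mitochondrially encoded genes removed, DESeq2 1.42.0, limma-voom 3.58.1, no low-count filter or a filter on a mean of 50 counts, the replicate number as a block, each library left out and, added after seeing the data, a loess trend (span 0.4) on transcript GC removed from each library. Named members were all those called, the 4 with the smallest adjusted p and the highest and lowest in each complex, tissue isoforms, ATP5IF1, SDH genes and all filtered out. Named context genes were those called and a fixed panel, and YY1 was added after its value was seen. Other members named were chosen after their values were seen. Where a symbol had several identifiers, the one with most counts was used.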

Additional observations from a re-analysis of the deposited data

How the results depend on the processing

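Among the 7 called members, the adjusted p missed the threshold with library totals for ATP5MC2 (0.75, edgeR adjusted p = 0.0767) and ATP5ME (0.77, edgeR adjusted p = 0.0653), and with the GC trend removed for ATP5MC2. With RLE factors, mitochondrially encoded genes removed, no filter, a mean of at least 50 counts or limma-voom, the same 7 were called, and with the replicate block 8, since the block added UQCR11 (edgeR adjusted p = 0.0182). The replicate numbers share no stated origin (correlation of deviations -0.034), and the block gave 1152 genes higher and 962 lower over the table. DESeq2 called 13 members higher (14.9%, against 9.79% of all genes it fitted). It called 15 of the 146 context genes lower, against 9.37% of all genes it fitted. Library totals gave 415 genes lower (3.02% of all tested genes). Of the 146 context genes they gave 3 higher (against 5.75% of all tested genes) and 2 lower (against 3.02%). The GC fit gave 7 context genes higher, against 9.18% of all tested genes. Without the filter the median of complex IV was 0.50, but it then included COX6B2, COX7A1 and COX8C, which had few counts.

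Leaving out each library in turn gave 149 to 1888 genes higher and 56 to 1760 lower, 0 to 14 members higher and 0 to 3 lower, and 0 to 17 context genes higher and 0 to 23 lower. A group of 1 library is then assumed to vary like the other. The medians ranged from 0.061 to 0.24 for complex I, -0.16 to 0.21 for complex II, 0.18 to 0.36 for complex III, 0.35 to 0.53 for complex IV and -0.0059 to 0.11 for complex V. Among named genes, signs turned for 7 that were not called, whose ranges over the 4 fits were -0.38 to 0.031 for ATP5MC1, -0.096 to 0.21 for ATP5MC3, -0.092 to 0.37 for COX7B, -8.45 to 0.36 for NDUFC2-KCTD14 (from few counts), -0.82 to 0.055 for SDHD, -0.25 to 0.20 for UQCRC2 and -0.31 to 0.18 for GABPA. The sign turned without DMSO 1 for SDHD, UQCRC2 and GABPA, without DMSO 2 for ATP5MC3, COX7B and NDUFC2-KCTD14, without RB-BC 1 for ATP5MC3, and without RB-BC 2 for ATP5MC1 and COX7B. GABPA was also at 0.17 with the GC trend removed. The cause of these changes was not tested.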
